A study of Mus musculus with 6 samples.

Results

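The genes described here are 3 sodium-coupled carriers of the Slc13 family, Slc13a2, Slc13a3 and Slc13a5, and the lysophospholipid carrier Mfsd2a, 4 of the 20107 genes in a table of liver read counts. They were taken from the table by gene symbol, and the symbols were picked from earlier results on the difference in counts between HFHC and Chow livers. Livers came from male wild type C57BL/6N mice (Envigo) aged 16 weeks. The HFHC mice, 3 animals (replicates 1, 2 and 3), had eaten a high-fat, high-calorie diet containing fructose, with a high-fructose drink, from 8 weeks of age for 8 weeks. The Chow mice, 3 littermate animals (replicates 7, 8 and 9), had eaten chow to the same age. No genetic change or drug was given to either diet. The comparison asks how the HFHC regimen alters liver gene expression.

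Slc13 proteins use the sodium gradient to bring citrate, other tricarboxylates and dicarboxylates such as succinate into cells. Slc13a5 is the plasma membrane citrate carrier of hepatocytes, and imported citrate can feed cytosolic fatty acid and sterol synthesis. Mice lacking Slc13a5 are known to resist fatty liver on a high-fat diet. Slc13a3 is a high-affinity dicarboxylate carrier of kidney, liver and brain. Slc13a2 is a low-affinity carrier of dicarboxylates and citrate, best known from the brush border of kidney proximal tubule and small intestine. Mfsd2a takes up lysophosphatidylcholine, including the form that carries docosahexaenoic acid across the blood-brain barrier, and in mouse liver its RNA is known to rise with fasting and to vary over the day.

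The 4 genes lay on the minus strand of mm10. Slc13a5 (chromosome 11, 72241989 to 72267222) and Slc13a2 (chromosome 11, 78397087 to 78422217) were 6.13 megabases apart. Slc13a3 occupied 165405028 to 165473230 on chromosome 2 and Mfsd2a 122946850 to 122961188 on chromosome 4. In the GENCODE M21 annotation, Slc13a2os, a noncoding gene running the other way, shares 632 bases with the exons of Slc13a2 (2412 bases in all). Likewise, 1700051A21Rik shares 473 bases with the exons of Slc13a5 (4940 bases). How the counting treated strand is not stated, so reads from these opposite-strand genes cannot be told apart from reads of Slc13a2 or Slc13a5. No other gene shares exonic bases with Slc13a3 or Mfsd2a.

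The sequences before the transcription starts of the 2 genes with the widest differences between diets are shown (RefSeq, GRCm38.p6, minus strand, 250 bases ending just before the start). In the Mfsd2a sequence, chr4:122961189-122961438, capitals mark AGGTCA and GCGTG or its reverse complement. AGGTCA is a single unit of nuclear receptor binding elements, and GCGTG is the core recognised by the aryl hydrocarbon receptor. In the Slc13a2 sequence, chr11:78422235-78422484, none of the letters searched for was present.
Mfsd2a: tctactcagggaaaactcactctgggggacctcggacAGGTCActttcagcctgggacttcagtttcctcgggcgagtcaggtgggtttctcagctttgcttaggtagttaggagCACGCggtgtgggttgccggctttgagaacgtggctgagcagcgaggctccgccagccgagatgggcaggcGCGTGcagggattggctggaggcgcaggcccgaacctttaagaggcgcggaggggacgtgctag
Slc13a2: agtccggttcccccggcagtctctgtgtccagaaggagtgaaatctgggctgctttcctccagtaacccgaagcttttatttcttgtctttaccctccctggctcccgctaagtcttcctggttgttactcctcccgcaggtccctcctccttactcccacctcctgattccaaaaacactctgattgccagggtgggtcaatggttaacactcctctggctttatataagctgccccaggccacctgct

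The search covered both strands of the 300 bases from 250 before to 50 after each start. Its motifs were AGGTCA, a pair of AGGTCA elements 1 base apart with at most 2 mismatches (DR1, the arrangement that PPAR binds), TGACG as the CREB core, the aryl hydrocarbon receptor core GCGTG and, as the E-box, CACGTG. In Mfsd2a, AGGTCA stood at -213 to -208, and 16.3% of 32841 promoters of that length hold it. GCGTG stood there at -64 to -60 and, on the other strand, at -135 to -131, and 32.4% of promoters hold it. No DR1 pair lay in a window of the 4 genes, against 3.86% of all promoters. Slc13a3 had TGACG at -201 to -197 (20.8% of promoters) and CACGTG at -154 to -149 (7.15%). Slc13a5 has a pair of start sites, and GCGTG was in the window of the start nearer the gene's end, at 33 to 37. Slc13a2 differed from the others in base composition, with 54.3% GC and 8 CpG dinucleotides. The windows of Mfsd2a, Slc13a3 and Slc13a5 held 60.3% to 69.3% GC and 17 to 25 CpG, while the medians over all promoters were 52.7% and 7. A match is a string of letters and not a measured binding site.

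The HFHC libraries held 30096409 to 30871297 counts and the Chow libraries 26767416 to 27339613, so depth moved with diet. Levels are CPM, counts divided by TMM-scaled library size, where 1 read stood for 0.0318 to 0.0379 CPM. A difference is a log2 fold change of HFHC over Chow and is given with its SE (standard error). Of 14896 genes tested with edgeR's quasi-likelihood test, 994 (6.67%) passed at an adjusted p under 0.05, 503 (3.38%) higher and 491 (3.30%) lower in HFHC. Chow replicate 8 stood apart from the other Chow libraries on the second principal component (-30.36, against 11.19 and 11.94 in Chow replicates 7 and 9). Hepatocyte markers summed to 103900 to 106300 CPM in HFHC and 97490 to 118100 CPM in Chow, and all 10 of them passed the count filter. Of these markers, 2 passed the test as lower, Apob (-0.43 ± 0.11, adjusted p = 0.0453) and Cps1 (-0.75 ± 0.12, adjusted p = 0.00837). The other 8 did not pass. All 4 members passed the count filter and 2 of them passed the test, beside the 6.67% of all genes. In 3 of the 4 the libraries of the diets did not overlap, which held for 27.8% of all tested genes. Nothing is read from either count, since the members were chosen with this contrast known, and for the same reason their differences are given below without p values.

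Slc13a2 was about an order of magnitude lower in HFHC livers. HFHC replicates 1, 2 and 3 held 0.445, 0.224 and 0.402 CPM, and Chow replicates 7, 8 and 9 held 3.68, 3.74 and 4.71 CPM. The diets were far apart, with 2.87 on the log2 scale between their nearest libraries. The highest library had 1.99 times the CPM of the lowest in HFHC and 1.28 times in Chow. In counts, 33 reads were found in all HFHC livers and 325 in all Chow livers. The log2 fold change was -3.49 ± 0.26 (SE), or 11.2-fold lower in HFHC, and 5 of the 14896 tested genes had a lower one. It ran from -3.67 without HFHC replicate 1 to -3.24 without HFHC replicate 2. In bulk tissue, fewer cells that express a gene and less RNA per cell cannot be told apart.

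Slc13a3 had 11.99, 16.0 and 13.4 CPM in HFHC replicates 1, 2 and 3, against 11.6, 10.6 and 9.43 CPM in Chow replicates 7, 8 and 9. The diets did not overlap but nearly touched: HFHC replicate 1 was 0.05 above Chow replicate 7 on the log2 scale. The log2 fold change was 0.39 ± 0.13 (SE) and ran from 0.27 without HFHC replicate 2 to 0.48 without HFHC replicate 1. It did not pass in the fit over all genes.

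Slc13a5, the hepatocyte citrate carrier, was scarce under both diets. HFHC replicates 1, 2 and 3 had 32, 25 and 17 reads (1.02, 0.801 and 0.570 CPM), against 10, 25 and 15 reads (0.379, 0.907 and 0.566 CPM) in Chow replicates 7, 8 and 9. The libraries of the diets overlapped, and Chow replicate 8 lay above HFHC replicates 2 and 3. Its log2 fold change of 0.36 ± 0.37 (SE) did not pass, and ran from 0.11 without Chow replicate 7 to 0.76 without Chow replicate 8. Among members it had the widest error relative to its size, and a change of either sign cannot be told from the spread at this depth.

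Mfsd2a was several-fold higher in HFHC livers. HFHC replicates 1, 2 and 3 held 69.1, 100.4 and 61.0 CPM, and Chow replicates 7, 8 and 9 held 7.10, 21.4 and 14.2 CPM. Every HFHC library was above every Chow library, but the Chow livers were themselves uneven, replicate 8 having 3.02 times the CPM of replicate 7. Mfsd2a averaged 76.8 ± 20.8 CPM in HFHC and 14.2 ± 7.17 CPM in Chow (SD, n = 3 each). The log2 fold change was 2.43 ± 0.33 (SE), a 5.39-fold difference, and 35 tested genes had a higher one. Without Chow replicate 7 it was 2.11 and without Chow replicate 8 it was 2.86. Deposited values of Mfsd2a were fractional in 2 libraries, those of the Slc13 carriers in none.

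**Figure D1:**
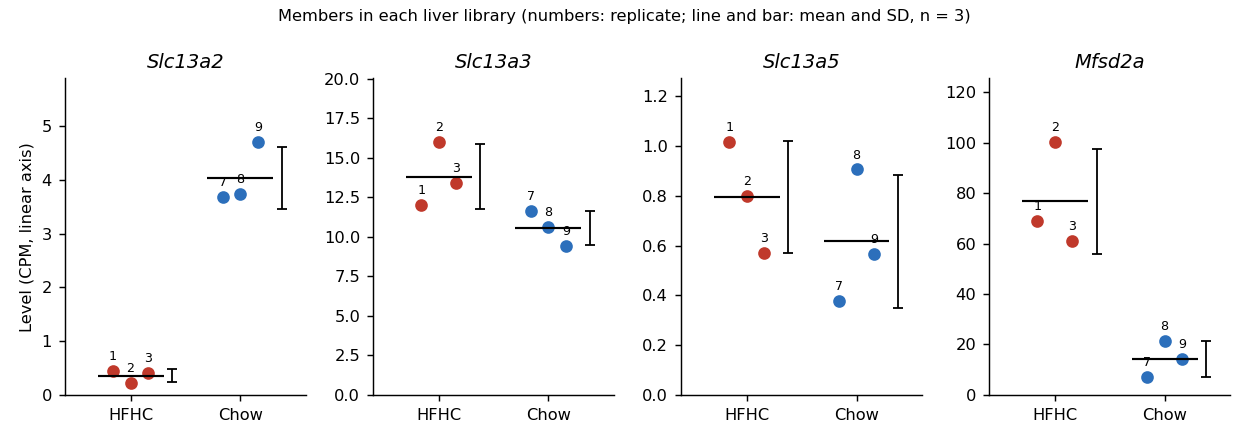
CPM (linear axes) of Slc13a2, Slc13a3, Slc13a5 and Mfsd2a in each HFHC library (left, red) and Chow library (right, blue), with replicate numbers, the mean as a line and the SD as a bar. HFHC libraries lie between 0.224 and 0.445 CPM for Slc13a2 and between 61.0 and 100.4 CPM for Mfsd2a, clear of the Chow libraries, while those of Slc13a5 overlap.

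To compare genes with each other, counts were divided by exonic length and rescaled to a fixed total per library (TPM). In HFHC livers the order was Mfsd2a (74.9 ± 23.2 TPM), Slc13a3 (5.78 ± 1.001), Slc13a5 (0.354 ± 0.111) and Slc13a2 (0.321 ± 0.102; SD, n = 3). In Chow livers Mfsd2a (13.4 ± 6.99 TPM) was also first, followed by Slc13a3 (4.27 ± 0.460), Slc13a2 (3.53 ± 0.466) and Slc13a5 (0.265 ± 0.120). The neighbours Slc13a5 and Slc13a2 overlapped in HFHC libraries, and Slc13a3 and Slc13a2 overlapped in Chow libraries, so those places in the order do not differ beyond their spread. Among tested genes ranked by mean TPM, Slc13a2 stood at percentile 5.2 in HFHC and 37.6 in Chow, and Mfsd2a at percentile 91.5 in HFHC and 68.9 in Chow. Slc13a3 stood at percentile 48.1 in HFHC and 41.8 in Chow, and Slc13a5 at 6.1 in HFHC and 4.2 in Chow.

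**Figure D2:**
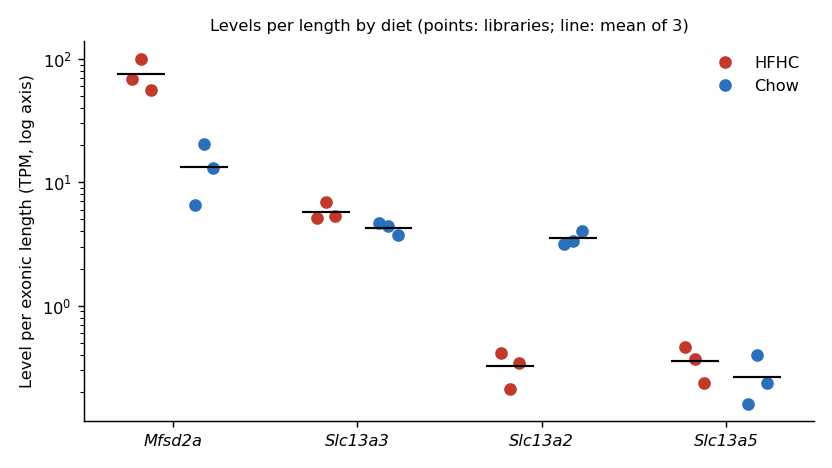
Level per exonic length (TPM, log axis) of each member by diet, HFHC in red on the left of each pair and Chow in blue on the right, with 1 point per library and the mean as a line. Mfsd2a is the most abundant member under both diets, and Slc13a2 lies beside Slc13a3 in Chow but beside Slc13a5 in HFHC.

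The makeup of the Slc13 carriers on the TPM scale follows from these levels. Slc13a2 made up 6.9%, 2.8% and 5.8% of the summed TPM of the 3 carriers in HFHC replicates 1, 2 and 3, and 39.9%, 41.1% and 50.4% in Chow replicates 7, 8 and 9. The ratio of Slc13a3 to Slc13a2 in TPM was 12.5 to 33 in HFHC libraries and 0.925 to 1.46 in Chow libraries. Summed over the 3 carriers, the level was 5.98, 7.51 and 5.88 TPM in HFHC and 7.99, 8.13 and 8.05 TPM in Chow. The remaining family members carry mainly sulfate. Of these, Slc13a4 had 27 reads in all HFHC livers and 30 in all Chow livers, too few for the test, and Slc13a1 was not analysed here.

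Slc13a2 is a gene of kidney and intestine, so markers of those tissues were examined beside it. Of 12 proximal tubule markers, 4 could be measured. The defining marker Miox stood at 0.0318 to 0.0671 CPM in HFHC and 0.0377 to 0.114 CPM in Chow, at or under about 3 reads in each library. Slc27a2, which hepatocytes also express, made up nearly all of the list's sum, 1147 to 1377 CPM in HFHC and 816.4 to 1029 CPM in Chow. It is the only tested member of that list that passed, and it was higher in HFHC (0.47 ± 0.11, adjusted p = 0.0394), a call that held in 1 of 6 fits without a library, that without HFHC replicate 1 (up to 0.123). The remaining markers Lrp2 and Napsa stayed under 3 CPM in every library. Of 9 small intestine markers 4 could be measured, and the structural protein gene Vil1 had 0.0318 to 0.0961 CPM in HFHC and 0.109 to 0.152 CPM in Chow. The intestine list's sum, 6993 to 7999 CPM in HFHC and 9173 to 11160 CPM in Chow, was nearly all Apob, which hepatocytes make, and Apob passed as lower (-0.43 ± 0.11, adjusted p = 0.0453, lost in all such fits but the one without Chow replicate 8) while Fabp2, a fatty acid binding protein gene, passed as higher (1.48 ± 0.09). Of 10 periportal hepatocyte markers, 5 passed as lower, Hal, Sds, Gls2, Cdh1 and Arg1 (3.30% of all genes did), and 5 did not pass. Among those 5, Pck1, Ass1, Cyp2f2 and Aldh1b1 were lower in HFHC without overlap, as were 14.3% of all tested genes. Hsd17b13 lay the other way without overlap (262.1 CPM in HFHC and 215.8 CPM in Chow, adjusted p = 0.0816). The list summed to 3695 to 4442 CPM in HFHC and 5975 to 6740 CPM in Chow, and Pck1, which did not pass (adjusted p = 0.0655), was its most abundant gene. The part of these markers in the Slc13a2 result was not tested. Mfsd2a is a gene of brain endothelium. The 10 sinusoidal endothelial markers summed to 263.6 to 293.7 CPM in HFHC and 279.1 to 290.7 CPM in Chow, overlapping between the diets. The 10 Kupffer cell and macrophage markers summed to 314.0 to 379.2 CPM in HFHC and 264.2 to 311.0 CPM in Chow, without overlap (two-sided exact permutation p = 0.1, the smallest possible). Of these, 0 passed with edgeR, DESeq2 or limma-voom, beside 6.67% of all tested genes with edgeR. An unadjusted edgeR p under 0.05 was found for 5 of them and for 3314 of all 14896 tested genes. The part of these macrophage markers in the Mfsd2a result was not tested.

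Time of day is a known source of variation in liver Mfsd2a, and the livers differed in a clock index, in which the averaged log2 CPM of Arntl, Npas2 and Clock is taken from that of Dbp, Per2 and Per3. Centred on the 6 libraries, it was 0.46, 1.18 and 1.45 in HFHC replicates 1, 2 and 3, and -2.07, 0.50 and -1.53 in Chow replicates 7, 8 and 9 (two-sided exact permutation p = 0.2, where 0.1 is the smallest the design allows). Chow replicate 8, with the highest index in its diet, also had the most Mfsd2a and the most Slc13a5 of the Chow livers. Among HFHC livers, replicate 3 had the highest index and the least Mfsd2a (61.0 CPM) and Slc13a5 (0.570 CPM). HFHC replicate 1 and Chow replicate 8 had nearly the same index, and between them Mfsd2a stood at 69.1 and 21.4 CPM and Slc13a2 at 0.445 and 3.74 CPM. That pair is a single library per diet, so nothing is read from it. The part of time of day in the members' differences was not tested. With the index in the model, the log2 fold change was 1.63 ± 0.38 (SE) for Mfsd2a, -3.37 ± 0.37 for Slc13a2, 0.35 ± 0.22 for Slc13a3 and -0.11 ± 0.53 for Slc13a5. That fit, chosen after seeing the data, called 35 genes higher and 30 lower over the whole table. Of the 24 list genes and neighbours named by rule that passed without the index, 2 passed with it, Slc16a11 (adjusted p = 0.0387) and Pnpla7 (0.0488). Dbp and Clock, among the 24, are part of the index, so the loss of their calls is no result. No PPAR alpha target passed in that edgeR fit. The median log2 fold change of the 25 was 0.70, against 0.53 without the index, and 24 were above 0. Fgf21 stood at 4.98, Cpt1a at 0.74 and Plin2 at 0.81 (adjusted p 0.0686, 0.126 and 0.137). The median of the glucagon and cAMP genes was 0.04 with the index, against -0.42 without it. The index partly moved with diet, so neither the lost calls nor these medians can be read either way.

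The gene nearest to Mfsd2a begins 120 bases beyond its start and runs the other way. This long noncoding gene, 4933421A08Rik (chromosome 4, 122961309 to 122963475, plus strand), had 0.541, 0.480 and 0.671 CPM in HFHC replicates 1, 2 and 3 and 0.0759, 0.181 and 0.189 CPM in Chow replicates 7, 8 and 9. The libraries did not overlap, and the gene rose by 1.89 ± 0.41 (adjusted p = 0.0279). It is a scarce transcript, under 1 CPM in every library. When libraries were left out in turn, the call failed each time except without Chow replicate 8 (adjusted p 0.0477 to 0.114 over the 6). On the far side of Mfsd2a, Cap1, 60793 bases away, did not pass (-0.04 ± 0.08, adjusted p = 0.808).

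**Figure D3:**
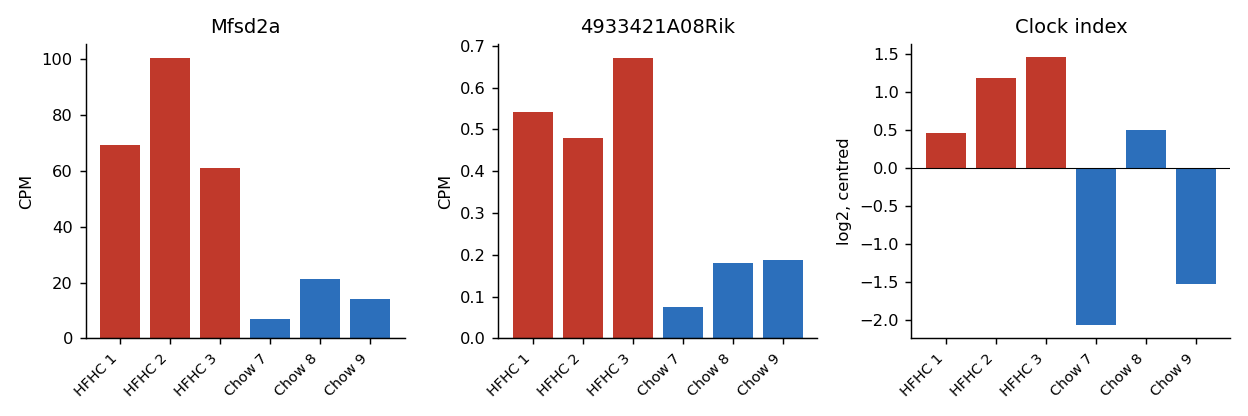
Bars per library, HFHC (red) left of Chow (blue), of Mfsd2a in CPM, of the divergent noncoding gene 4933421A08Rik in CPM and of the clock index on a centred log2 scale. Mfsd2a and 4933421A08Rik are higher in each HFHC library, while the index of Chow replicate 8 (0.50) reaches that of HFHC replicate 1 (0.46).

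Of the 6 neighbours of the Slc13 genes, Unc119 alone passed in edgeR, beside 6.67% of all tested genes. Nothing is read from a count over so few genes. Unc119, 47922 bases from Slc13a2, rose by 1.10 ± 0.17 (adjusted p = 0.00683), while Slc46a1, the folate carrier gene on the other side, did not pass (0.08 ± 0.09, adjusted p = 0.692). Neither neighbour of Slc13a3 passed: Ocstamp had 1.10 ± 0.30 (adjusted p = 0.0623, and 0.0384 in limma-voom with sample weights) and Trp53rka 0.31 ± 0.10 (adjusted p = 0.118). Beside Slc13a5, Med31 had -0.12 ± 0.17 (adjusted p = 0.726) and Xaf1 had 0.58 ± 0.19 (adjusted p = 0.0979).

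Likeness was measured as the root mean square difference between 2 genes' centred log2 CPM over the 6 libraries, among 11476 named genes with a mean of at least 1 CPM (11477 for Slc13a5, itself below that level). It is a description of profiles that a diet difference dominates. The genes most like Slc13a2 were the imprinted noncoding RNAs Rian (difference 0.235) and Meg3 (0.309) and the cytochrome P450 gene Cyp2c55 (0.407). Rian held 0.382, 0.224 and 0.604 CPM in HFHC replicates 1, 2 and 3, and 4.40, 4.21 and 6.22 CPM in Chow replicates 7, 8 and 9. Only Rian came within 0.25 of Slc13a2. For Mfsd2a the nearest were Cgref1 (0.264), Tmem28 (0.348) and Dntt (0.375), and no gene came within 0.25. Cgref1 held 2.07, 2.82 and 1.81 CPM in HFHC libraries and 0.114, 0.435 and 0.528 CPM in Chow libraries. Chow replicate 7 was lowest for both genes, but Cgref1 was highest in Chow replicate 9 and Mfsd2a in Chow replicate 8. The value of Cgref1 in Chow replicate 7 stood for 3 reads. Slc13a3 had a common profile, with 3822 genes within 0.25, led by Fzd1 (0.065), Mcam (0.070) and Dnaaf5 (0.076). Slc13a5 had 67 such genes, led by Bag3 (0.155), Fgr (0.158) and Cyren (0.161).

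The enzymes and carriers that handle citrate inside the cell were partly higher. Of 19 tested genes of citrate and malate handling, 4 rose and 1 fell, beside 3.38% of all tested genes higher and 3.30% lower. The median log2 fold change was 0.25, against -0.003 over all tested genes. Me1, the cytosolic malic enzyme, had 347.2, 409.8 and 301.0 CPM in HFHC livers and 73.0, 129.7 and 160.6 CPM in Chow livers, and rose by 1.54 ± 0.24 (adjusted p = 0.00774). Slc25a1, which exports citrate from mitochondria, rose by 0.40 ± 0.09 (adjusted p = 0.0278), Acaca, the cytosolic acetyl-CoA carboxylase, by 0.72 ± 0.16 (adjusted p = 0.0316) and Acly, which splits citrate to acetyl-CoA, by 0.93 ± 0.21 (adjusted p = 0.0336). Idh2, the mitochondrial isocitrate dehydrogenase, fell by 0.43 ± 0.10 (adjusted p = 0.0394). Slc25a1, Acaca and Acly lost their calls without HFHC replicate 1 or 2 or Chow replicate 7 or 9 (adjusted p up to 0.121, 0.113 and 0.119), and the list had 1 call without HFHC replicate 1 or Chow replicate 7. Idh2 lost its call in 4 of the 6 such fits (adjusted p up to 0.131) and with library totals alone (0.0555). Values of Me1, Slc25a1 and Acaca were fractional in all 6 libraries, and any reads they share with other genes make these levels uncertain.

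Among other plasma membrane carriers of carboxylates and organic anions, 2 of 16 tested rose and 1 fell, with a median of 0.19, beside 3.38% higher and 3.30% lower of all genes. Slc16a11, a monocarboxylate carrier family member, had 16.5, 17.1 and 14.7 CPM in HFHC livers and 7.13, 7.40 and 8.11 CPM in Chow livers (1.09 ± 0.10, adjusted p = 0.000602). Slc22a7, an organic anion carrier of hepatocytes, had 55.6, 49.0 and 65.2 CPM in HFHC livers and 27.8, 28.1 and 23.1 CPM in Chow livers (1.10 ± 0.12, adjusted p = 0.00128). Both calls stood in each fit that left out a library. Slc16a10, an aromatic amino acid carrier, fell by 0.33 ± 0.07 (adjusted p = 0.0265), but it failed in every such fit except the one without Chow replicate 8 (adjusted p up to 0.107).

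The Mfsd family, to which Mfsd2a belongs, is a group of membrane carriers, many without a known substrate. None of the other 14 tested Mfsd genes passed with edgeR, beside 6.67% of all tested genes, and DESeq2 and limma-voom also called 0. Their median was 0.06, and 2 had an unadjusted edgeR p under 0.05, as did 3314 of all 14896 tested genes. With so few genes a count of 0 is near the share over all genes, so it is no result about the family. The closest relative, Mfsd2b, which exports sphingosine-1-phosphate from blood cells, had 45 reads in all HFHC livers and 43 in all Chow livers (-0.13 ± 0.35, adjusted p = 0.863). The smallest p belonged to Mfsd14b (-0.30 ± 0.09, adjusted p = 0.0796), which passed without Chow replicate 8 (0.0461) and in limma-voom with sample weights (0.0254).

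Of 30 tested genes that make, remodel or break down lysophospholipids and phosphatidylcholine, 2 rose and 1 fell, with a median of 0.05. That count is near the 6.67% of all genes that passed, so it is no result about the list. Pnpla7, which hydrolyses lysophosphatidylcholine, had 168.4, 159.7 and 171.8 CPM in HFHC livers and 100.8, 98.8 and 95.4 CPM in Chow livers, and rose by 0.76 ± 0.07 (adjusted p = 0.000604). That call stood in each fit without a library. Lipg, the endothelial lipase that acts on lipoprotein phospholipids, rose by 1.29 ± 0.33 (adjusted p = 0.0484), with HFHC replicate 2 at 40.4 CPM and the other HFHC livers at 16.6 and 19.4 CPM. Its call was lost without HFHC replicate 2 or 3 or Chow replicate 7 or 9 (adjusted p up to 0.156), and its log2 fold change was 0.79 without HFHC replicate 2. It also failed in 5 of 9 settings for scaling, filter and tool, DESeq2 (0.0625) and limma-voom (0.0685) among them. The choline carrier gene Slc44a1 fell by 0.48 ± 0.12 (adjusted p = 0.0470), which was lost in 5 of the 6 fits (up to 0.158). This call also failed in 4 of 9 settings for scaling, filter and tool, limma-voom among them (adjusted p = 0.055). Lpcat3, the main lysophosphatidylcholine acyltransferase of liver, stood at 0.22 ± 0.11 and missed the threshold (adjusted p = 0.298).

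Mfsd2a is known as a gene that fasting and PPAR alpha turn on in mouse liver. Listed targets of that receptor rose in 13 of 25 cases with none lower, beside 3.38% of all genes higher (median 0.53). The part of PPAR alpha in the Mfsd2a result was not tested. Fgf21, a liver hormone, had 7.76, 11.8 and 3.56 CPM in HFHC livers and 0.190, 0.363 and 0.151 CPM in Chow livers (5.0 ± 0.54, adjusted p = 0.00124). Cpt1a, the entry enzyme of mitochondrial fatty acid oxidation, rose by 0.77 ± 0.09 (adjusted p = 0.00200) and the lipid droplet gene Plin2 by 1.09 ± 0.13 (adjusted p = 0.00216). These 3 calls stood in each fit that left out a library, and the list had 6 calls without Chow replicate 7. Other targets did not pass, among them Pdk4 (-0.20, adjusted p = 0.838) and Angptl4 (-0.10, adjusted p = 0.807), both well known for their fasting response. Values of Cpt1a and Plin2 were fractional in all 6 libraries.

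Genes of the glucagon and cAMP response, the hormonal arm of fasting, numbered 18, of which 3 fell, 0 rose and the median was -0.42, beside 3.30% of all genes lower. Tat, tyrosine aminotransferase, had 803.4, 847.7 and 783.4 CPM in HFHC livers and 1373, 1410 and 2093 CPM in Chow livers (-1.0 ± 0.15, adjusted p = 0.00673). The serine dehydratase gene Sds fell by 0.72 ± 0.17 (adjusted p = 0.0386) and Creb1, the cAMP-responsive factor, by 0.33 ± 0.08 (adjusted p = 0.0349). Tat kept its call in each fit without a library, Sds lost it in 4 of 6 (adjusted p up to 0.115) and Creb1 in all 6 (up to 0.114). Creb1 also failed with library totals alone (adjusted p = 0.0566) and with no count filter (0.0541). Sds and Pck1 are on both this list and the list of periportal markers.

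Of 15 tested regulators 3 passed and of 14 clock genes 3, beside 6.67% of all genes. Ppara rose by 0.76 ± 0.17 (adjusted p = 0.0330) and Pparg by 0.76 ± 0.15 (adjusted p = 0.0196), and Esr1, the estrogen receptor, fell by 0.47 ± 0.12 (adjusted p = 0.04996). Ppara lost its call without HFHC replicate 1 or Chow replicate 7 or 9 (adjusted p up to 0.123), Pparg without Chow replicate 7 or 9 (up to 0.0808), and Esr1 in all 6 fits (up to 0.170). Esr1 also failed in 7 of 9 settings for scaling, filter and tool (0.0531 with median-of-ratios factors). Neither Ahr (-0.36, adjusted p = 0.508) nor Nr1i2, the PXR gene (-0.18, adjusted p = 0.292), both known to regulate Slc13a5, passed. Among clock genes Dbp rose (1.26 ± 0.28, adjusted p = 0.0306) and Clock (-0.60 ± 0.08, adjusted p = 0.00449) and Cry1 (-0.49 ± 0.13, adjusted p = 0.0486) fell. Without a library the call of Dbp was lost in 5 of 6 fits, the exception being Chow replicate 8 (up to 0.110), and that of Cry1 in all 6 (up to 0.118). Cry1 also failed in 5 of 9 settings for scaling, filter and tool, limma-voom among them (adjusted p = 0.0549).

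**Figure D4:**
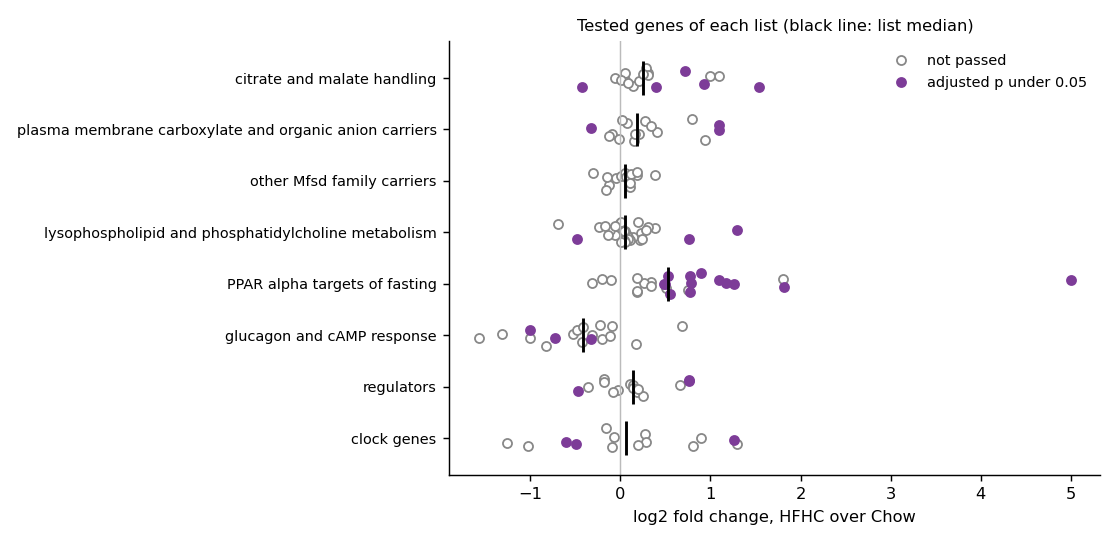
Log2 fold change (HFHC over Chow) of each tested gene in 8 lists, filled where the adjusted p was under 0.05 and open otherwise, with the list median as a black line. The median is 0.53 for PPAR alpha targets, -0.42 for the glucagon and cAMP response and 0.06 for the other Mfsd carriers.

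The members' differences were set against the choice of scaling, filter and tool. Over 9 such settings Slc13a2 ran from -3.50 to -3.45, Slc13a3 from 0.36 to 0.42 and Mfsd2a from 2.43 to 2.68. Slc13a5 ran from 0.36 to 0.65 over the 8 settings that kept it, since a filter of 1 CPM removed it.

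**Figure D5:**
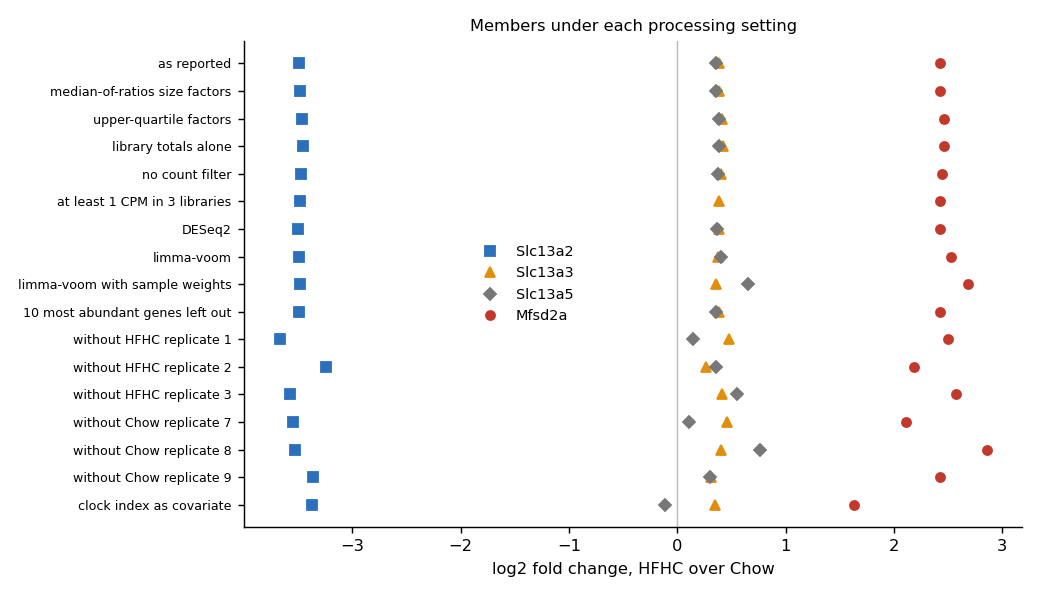
Log2 fold change (HFHC over Chow) of the 4 members as reported, under each processing setting, without each library and with the clock index as a covariate. Slc13a2 stays between -3.67 and -3.24 and Mfsd2a between 1.63 and 2.86, and Slc13a5 reaches -0.11 with the index.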

How the data were processed

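Liver RNA from 6 mice was sequenced as paired 75-base reads from rRNA-depleted stranded libraries, per the labels' protocols. The submitters' processing notes name STAR 2.7.3a, Partek 9 and mm10. The authors deposited estimated counts (expected counts) per gene, unnormalized, and 22.4% were not whole (tolerance 0.01). For the counting, annotation and strand setting: not given in the sources used here.

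Counts were rounded, filtered with filterByExpr (minimum count 10) and tested in edgeR 4.0.16 (TMM, quasi-likelihood F test, no covariate) with Benjamini-Hochberg adjustment over 14896 genes. Each SE is the log2 fold change over the root of its F statistic. No batch, litter or pairing is labelled, and the p values cover animal-to-animal spread within these 2 sets of 3. Any dependence between littermates was not modelled. Log2 CPM used a prior count of 2. Of the table's rows, 19606 matched GENCODE M21, which gave exonic lengths, and ends are printed with the table's extra base taken off. R 4.3.3, limma 3.58.1, DESeq2 1.42.0 and Python 3.11.15 were used, and the fit was tested on simulated data. Alternatives were other scaling factors, other count filters, leaving out the 10 most abundant genes, DESeq2, limma-voom with and without sample weights, a threshold of 0.01 and each library left out.

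Members and lists were chosen with earlier results of these data known. Of 284 entries in 9 pathway and 14 marker lists, 32 were not analysed here. Named were, per pathway list, up to 3 called genes by smallest p in the commoner direction and 1 in the other, or the smallest p where none was called, each member's nearest tested gene per side (within 500000 bases) and its 3 most alike genes. Acly, Mfsd2b, Lpcat3, Pdk4, Angptl4, Ahr, Nr1i2 and the markers were named beyond that rule, after their values were seen.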

Additional observations from a re-analysis of the deposited data

How the results depend on the processing

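The direction of Slc13a2, Slc13a3 and Mfsd2a was the same in every fit that gave a value. Without each library in turn, Slc13a2 ran from -3.67 to -3.24, Slc13a3 from 0.27 to 0.48, Slc13a5 from 0.11 to 0.76 and Mfsd2a from 2.11 to 2.86. With the clock index as a covariate, an alternative added after seeing the data, Slc13a5 reversed to -0.11 and Mfsd2a stood at 1.63; the cause was not tested. That fit has 1 residual degree of freedom fewer and called 35 genes higher and 30 lower. It had 0 calls among citrate, PPAR alpha, glucagon and regulator genes and 1 each among carboxylate carriers and lysophospholipid genes. Clock genes also had 0 calls, which is no result, since 6 of them make up the index. Because the index partly moved with diet, a lost call cannot be read either way. Log2 fold changes with the index moved little for some named genes that lost their calls and more for others. They stood at 4.98 for Fgf21, 0.74 for Cpt1a, 1.3 for Me1, 0.45 for Slc25a1, -0.85 for Tat and 0.68 for Ppara. Larger shifts were seen for Dbp (1.26 to 0.44), Slc44a1 (-0.48 to -0.12), Lipg (1.29 to 0.69) and Unc119 (1.10 to 0.69). Without each library in turn, 207 to 527 genes were higher and 154 to 553 lower, with the fewest without Chow replicate 7 and the most without Chow replicate 8. Calls then numbered 1 to 6 for citrate handling, 2 to 3 for carboxylate carriers, 0 to 1 for Mfsd genes, 1 to 4 for lysophospholipid genes, 6 to 13 for PPAR alpha targets, 1 to 4 for the glucagon response, 0 to 3 for regulators and 1 to 7 for clock genes. At an adjusted p under 0.01, 166 genes were higher and 116 lower, with 1 call each for citrate handling, lysophospholipid genes, the glucagon response and clock genes, 6 for PPAR alpha targets and 0 for regulators. Sample-weighted limma-voom called 704 genes higher and 790 lower, among them 2 Mfsd genes. Library totals alone and limma-voom each left 1 lysophospholipid call, and DESeq2 called 5 clock genes and 8 periportal markers (5 with edgeR). Of all calls, the share that was higher was 50.6% with TMM, 59.8% with upper-quartile factors and 59.0% with library totals alone. Of 24 named genes that passed, 10 stood in all 6 fits without a library and 17 in all 9 settings for scaling, filter and tool; 4933421A08Rik stood in the 7 that gave it an adjusted p. The uncalled neighbours Cap1 (-0.1 to 0.0093 without each library, above 0 without HFHC replicate 1) and Slc46a1 (-0.0019 to 0.14, below 0 without Chow replicate 8) changed sign. No paired analysis was possible, since the litter or pair of each animal is not labelled. Depth limits Slc13a5, with 10 to 32 reads a library.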
